A study of Mus musculus with 8 samples.

Results

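Nqo1, Ephx1, Akr1b8, Cbr3, Aox1, Gsta4, Mgst2, Abcc4 and Pir are 9 genes of the detoxification response that the transcription factor NRF2 is known to control. They were chosen by name, with the earlier result in view that they stood lower in macrophages kept 24 h with histidine-rich glycoprotein (HRG) than in macrophages kept 24 h without it. Each gene was represented by the row of the array whose platform annotation gives that symbol alone, and each had 1 such row, so the 9 genes made up 9 of 19938 genes measured. Most of the products are enzymes, while Abcc4 is a membrane exporter and Pir an iron-binding nuclear protein, so the 9 are called NRF2 detoxification genes here.

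The cells were peritoneal macrophages obtained by lavage from wild-type C57/Bl6 mice, pooled from 10 animals and kept overnight in medium with fetal calf serum. HRG, made as a recombinant form of this abundant blood protein, was then added at 1 µg/ml for 6 h or 24 h, and untreated (basal) cells of the same pool were kept for the same times. Each of the 4 groups (basal 6 h, HRG 6 h, basal 24 h, HRG 24 h) comprised 2 samples, and every sample had an Affymetrix array to itself. All samples came from that pool, and nothing states how far duplicates were handled apart, so the p-values reflect the scatter between duplicates and that scatter may be purely technical.

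NRF2 is held in the cytoplasm by KEAP1, which feeds it to the proteasome. Electrophiles and oxidants modify cysteines of KEAP1, and NRF2 then enters the nucleus, pairs with a small MAF protein and binds antioxidant response elements near genes for quinone and aldehyde reduction, epoxide hydrolysis, glutathione conjugation, export of conjugates, glutathione and thioredoxin reduction and NADPH supply. In macrophages this programme is known for limiting oxidative damage after phagocytosis and in culture.

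The bases before the transcription starts are shown for those of the 9 genes whose window held the core of the antioxidant response element. Nqo1, which had the largest difference between HRG and basal cells at 24 h, is shown beside them. RefSeq windows (GRCm38.p6) were found for 8 of the 9 genes, with 9 windows in all because Abcc4 has 2 starts. The motif TGACNNNGC was sought on both strands in the 250 bases before the start, where it occurred in 10.2% of 32851 windows of all genes. It was present in 3 of the 9 windows, those of Pir and both of Abcc4. The motif GCGTG, the core of the xenobiotic response element, occurred in 28.2% of all windows and in 4 of the 9, those of Akr1b8, Aox1, Pir and the first of Abcc4. The sequences run 5′ to 3′ on the strand of the gene, and capitals mark the TGACNNNGC match or, where it lies on the opposite strand, its reverse complement.
Nqo1 (chr8:107403206-107403455, minus strand): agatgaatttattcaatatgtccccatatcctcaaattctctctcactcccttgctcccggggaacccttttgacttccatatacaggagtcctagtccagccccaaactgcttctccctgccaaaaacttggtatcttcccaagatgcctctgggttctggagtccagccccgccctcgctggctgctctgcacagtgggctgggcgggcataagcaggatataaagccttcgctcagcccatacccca
Pir (chrX:164269181-164269430, plus strand): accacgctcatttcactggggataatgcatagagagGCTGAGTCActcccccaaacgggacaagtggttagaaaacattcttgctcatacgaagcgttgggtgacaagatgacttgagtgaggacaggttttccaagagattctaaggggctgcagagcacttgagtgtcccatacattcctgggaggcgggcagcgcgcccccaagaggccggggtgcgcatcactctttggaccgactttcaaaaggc
Abcc4, first start (chr14:118706220-118706469, minus strand): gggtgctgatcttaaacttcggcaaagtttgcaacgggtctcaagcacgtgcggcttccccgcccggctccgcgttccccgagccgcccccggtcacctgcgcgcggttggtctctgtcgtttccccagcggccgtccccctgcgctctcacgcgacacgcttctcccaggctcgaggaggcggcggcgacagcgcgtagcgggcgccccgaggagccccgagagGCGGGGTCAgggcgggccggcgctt
Abcc4, second start (chr14:118676932-118677181, minus strand): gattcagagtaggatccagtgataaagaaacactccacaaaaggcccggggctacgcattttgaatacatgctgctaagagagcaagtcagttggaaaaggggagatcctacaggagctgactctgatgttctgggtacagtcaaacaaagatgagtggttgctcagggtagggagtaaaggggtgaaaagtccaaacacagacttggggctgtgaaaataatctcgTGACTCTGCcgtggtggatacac
Read on the strand of the match, the site of Pir was TGACTCAGC, on the opposite strand at bases -214 to -206 from the start, and those of Abcc4 were TGACCCCGC (-25 to -17) and TGACTCTGC (-23 to -15). The Nqo1 window held no match, which says only that these letters are not in this window.

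Array medians lay between 7.18 and 7.29 on the log2 scale, so the arrays had close distributions. The 10 macrophage markers ranked between the 67.4th (Icam2) and the 100th (Lyz2) percentile of gene means, with Adgre1, Csf1r and Cd68 at or above the 99.6th and Mertk, Fcgr1 and Gata6 at the 91.3rd, 91.4th and 88.3rd. Some markers of other cells ranked as high as the lower of these: Cpa3 and Tpsb2 of mast cells ranked at the 92.3rd and 92.4th and Cd79b of B cells at the 85.3rd. Dcn of the mesothelial and fibroblast list ranked at the 94.3rd, with the rest of that list between the 27.5th (Krt19) and the 62.1st (Col1a1). Ccr7 of the dendritic list ranked at the 83.1st, with the rest between the 19.6th (Xcr1) and the 48th (Flt3). Differences below are on the log2 scale with the standard error (SE) of a limma fit over all 8 arrays, n = 2 arrays per group, and a gene is said to have risen or fallen where its p, adjusted by Benjamini-Hochberg over 19938 genes, was under 0.05. The 9 genes were chosen with the 24 h contrast known. For them, every comparison that uses a 24 h array is given as a description with no test, and the test at 6 h alone rests on arrays that the 24 h contrast did not use, although its estimate of the spread is shared.

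Across the 4 groups the 9 genes, Abcc4 only in part, shared one outline: their mean levels were highest in basal cells at 24 h and lower in HRG cells at 24 h, with small differences at 6 h. For Abcc4 the difference at 6 h (0.59) was near that between 6 h and 24 h in basal cells (0.63). Both basal 24 h arrays lay above all 6 other arrays for 8 of the 9 genes, a pattern found in 4.91% of all genes, and Abcc4 was the exception. Both HRG 24 h arrays lay below both basal 24 h arrays for 9 of 9, against 21.1% of all genes, and both basal 24 h arrays lay above both basal 6 h arrays for 9 of 9, against 23.5%. Since the first 2 patterns contain the contrast by which the genes were chosen, nothing is read from these shares. The median of the 9 differences was -1.33 for HRG minus basal at 24 h (all genes: -0.02), 1.20 for 24 h minus 6 h in basal cells (all genes: 0.03) and -0.13 for 24 h minus 6 h in HRG cells (all genes: -0.02). The last of these was -0.054 without HRG 24 h replicate 1 and -0.25 without HRG 24 h replicate 2.

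**Figure D1:**
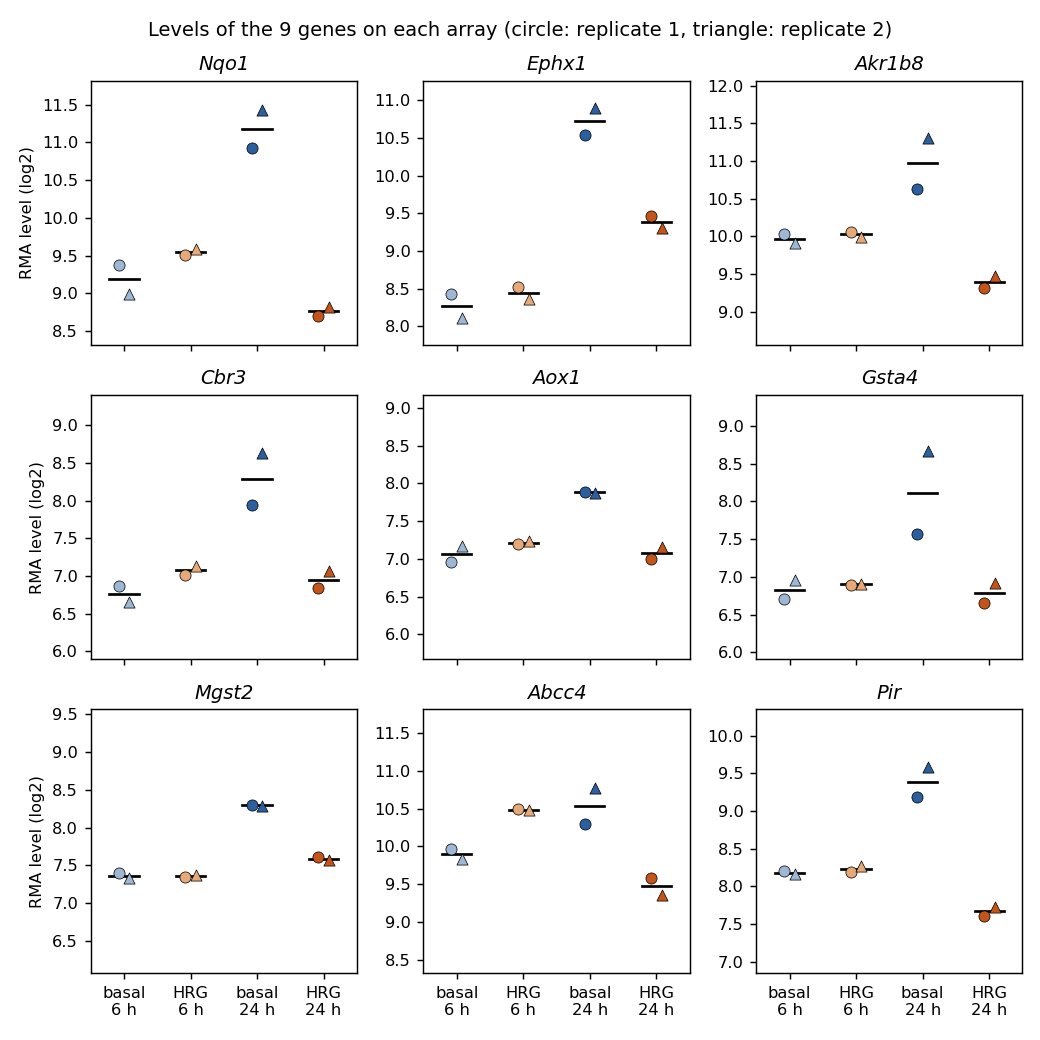
Log2 level of each of the 9 genes (vertical axis, 3.5 log2 units in every panel) in the 4 groups, with 1 symbol per array and a bar at the group mean of 2 arrays. The basal 24 h arrays stand highest for all genes but Abcc4, where the HRG 6 h arrays overlap them, and the basal 24 h replicates lie apart for Gsta4 (7.57 and 8.66).

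Among the enzymes that act on quinones and carbonyls, Nqo1, which reduces quinones to hydroquinones (row 10581538), had the largest difference of the 9. Its levels were 9.38 and 8.99 in basal cells at 6 h, 9.51 and 9.59 in HRG cells at 6 h, 10.93 and 11.43 in basal cells at 24 h, and 8.70 and 8.82 in HRG cells at 24 h. No 2 groups overlapped, and the order from high to low was basal 24 h, HRG 6 h, basal 6 h, HRG 24 h. Without HRG the level at 24 h was 1.99 ± 0.16 above that at 6 h (3.98-fold), while with HRG it was 0.79 ± 0.16 below, and HRG minus basal at 24 h was -2.41 ± 0.16. The HRG cells at 24 h thus lay not only below basal cells of that time but below all 4 arrays at 6 h.

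Akr1b8, an aldo-keto reductase that reduces reactive aldehydes (row 10537146), had the same order at its ends. Its levels were 10.03 and 9.91 in basal cells at 6 h, 10.06 and 10.00 in HRG cells at 6 h, 10.64 and 11.31 in basal cells at 24 h, and 9.31 and 9.47 in HRG cells at 24 h. The 6 h groups overlapped, basal 24 h stood above them and HRG 24 h below them. HRG minus basal at 24 h was -1.58 ± 0.17, and 24 h minus 6 h was 1.00 ± 0.17 in basal cells, or 0.67 without basal 24 h replicate 2, and -0.63 ± 0.17 in HRG cells.

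Cbr3, a carbonyl reductase (row 10436978), differed from these in that HRG cells at 24 h stayed within the range of the 6 h arrays. It read 6.87 and 6.66 in basal cells at 6 h, 7.02 and 7.14 in HRG cells at 6 h, 7.94 and 8.63 in basal cells at 24 h, and 6.84 and 7.06 in HRG cells at 24 h. HRG 24 h overlapped both 6 h groups. The difference from 6 h to 24 h was 1.52 ± 0.18 in basal cells and -0.13 ± 0.18 in HRG cells, and HRG minus basal at 24 h was -1.34 ± 0.18.

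Aox1, an aldehyde oxidase that uses a molybdenum cofactor (row 10346374), was the member whose basal 24 h replicates were closest, at 7.88 and 7.88. It read 6.96 and 7.17 in basal cells at 6 h, 7.19 and 7.23 in HRG cells at 6 h, and 7.0 and 7.16 in HRG cells at 24 h. HRG 24 h overlapped basal 6 h and lay just under HRG 6 h. HRG minus basal at 24 h was -0.80 ± 0.10, close in size to the 0.82 ± 0.10 between 6 h and 24 h in basal cells.

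Ephx1, the microsomal epoxide hydrolase (row 10360684), had the largest difference with culture time and was the clearest case in which HRG cells also stood higher at 24 h than at 6 h. It read 8.44 and 8.11 in basal cells at 6 h, 8.52 and 8.36 in HRG cells at 6 h, 10.54 and 10.90 in basal cells at 24 h, and 9.46 and 9.31 in HRG cells at 24 h. The 6 h groups overlapped, and HRG 24 h lay between them and basal 24 h with no overlap on either side. Over time the level differed by 2.44 ± 0.14 in basal cells (5.45-fold) and by 0.94 ± 0.14 in HRG cells, with HRG minus basal at 24 h at -1.33 ± 0.14.

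The glutathione transferases came next in the pathway. Gsta4, a cytosolic transferase that conjugates aldehydes of lipid peroxidation (row 10587315), read 6.71 and 6.95 in basal cells at 6 h, 6.89 and 6.91 in HRG cells at 6 h, 7.57 and 8.66 in basal cells at 24 h, and 6.65 and 6.91 in HRG cells at 24 h. All groups but basal 24 h overlapped, and the basal 24 h replicates were 1.09 apart, the widest gap of the 9. Gsta4 values therefore rested on 1 array: HRG minus basal at 24 h was -1.33 ± 0.25, but -0.79 without basal 24 h replicate 2 and -1.88 without basal 24 h replicate 1. The change with time in basal cells was 1.29 ± 0.25, or 0.74 and 1.83 without those arrays.

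Mgst2, a membrane-bound transferase that can also make cysteinyl leukotrienes (row 10491952), had the smallest difference between HRG and basal cells at 24 h and the smallest SE. It read 7.39 and 7.33 in basal cells at 6 h, 7.34 and 7.37 in HRG cells at 6 h, 8.30 and 8.29 in basal cells at 24 h, and 7.61 and 7.57 in HRG cells at 24 h. As for Ephx1, HRG 24 h lay between the overlapping 6 h groups and basal 24 h. HRG minus basal at 24 h was -0.71 ± 0.090, with 0.93 ± 0.090 between 6 h and 24 h in basal cells and 0.23 ± 0.090 in HRG cells.

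The last pair are not detoxifying enzymes in the narrow sense. Abcc4, an exporter of organic anions, cyclic nucleotides and conjugates (row 10422280), read 9.96 and 9.84 in basal cells at 6 h, 10.49 and 10.48 in HRG cells at 6 h, 10.29 and 10.77 in basal cells at 24 h, and 9.58 and 9.36 in HRG cells at 24 h. HRG 6 h overlapped basal 24 h at the top, and HRG 24 h was lowest with no overlap, so the HRG arrays stood above basal at 6 h and below it at 24 h. HRG minus basal at 24 h was -1.06 ± 0.14, and over time the level differed by 0.63 ± 0.14 in basal cells (0.39 without basal 24 h replicate 2) and by -1.02 ± 0.14 in HRG cells.

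Pir, pirin (row 10603087), read 8.20 and 8.16 in basal cells at 6 h, 8.20 and 8.27 in HRG cells at 6 h, 9.19 and 9.58 in basal cells at 24 h, and 7.61 and 7.73 in HRG cells at 24 h. The 6 h groups overlapped, with basal 24 h above and HRG 24 h below them. HRG minus basal at 24 h was -1.72 ± 0.12, the second largest of the 9, from 1.20 ± 0.12 between 6 h and 24 h in basal cells and -0.57 ± 0.12 in HRG cells.

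Set against the 4 arrays at 6 h, HRG cells at 24 h fell into 3 kinds. Both HRG 24 h arrays lay below all 6 h arrays for Nqo1, Akr1b8, Abcc4 and Pir (4 of 9, against 15.4% of all genes), above all of them for Ephx1 and Mgst2 (2 of 9, against 14.7%), and within or overlapping their range for Cbr3, Aox1 and Gsta4 (3 of 9, against 69.9%). Compared with the HRG 6 h arrays alone, both HRG 24 h arrays lay lower for 5 of 9 (26.6% of all genes) and higher for 2 of 9 (22.6%). These shares include the HRG 24 h arrays by which the genes were chosen, so nothing is read from them. By sign alone, HRG cells stood lower at 24 h than at 6 h for 7 of the 9 genes, as for 11069 of all 19938 genes. Of these, Cbr3 (-0.13 ± 0.18), Aox1 (-0.13 ± 0.10) and Gsta4 (-0.12 ± 0.25) were near 0. Ephx1 and Mgst2 stood higher, by less than in basal cells. This count uses the same arrays, so nothing is read from it either.

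**Figure D2:**
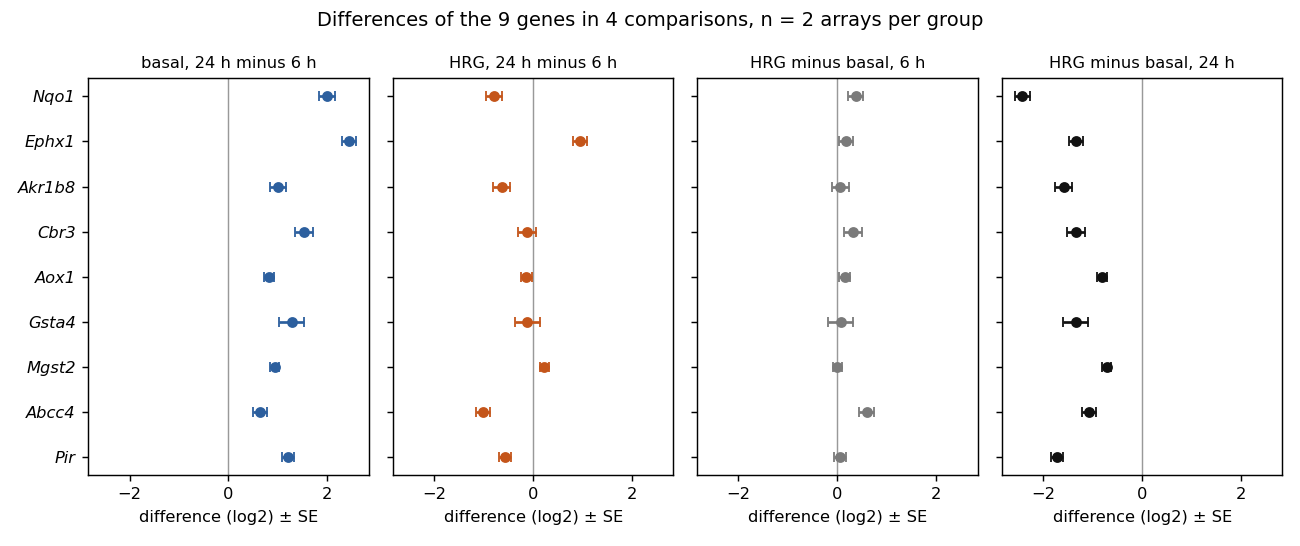
Log2 differences of the 9 genes with SE bars (n = 2 arrays per group) in 4 comparisons, 1 panel each. Basal cells stood higher at 24 h for 9 of 9 genes, from 0.63 (Abcc4) to 2.44 (Ephx1), HRG cells stood on both sides of 0, from -1.02 to 0.94, and HRG minus basal lay between -0.0031 and 0.59 at 6 h and between -2.41 and -0.71 at 24 h.

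The comparison at 6 h asked whether HRG altered these transcripts early, on arrays that the 24 h contrast did not use. None of the 9 fell and none rose (0 of 9 each by limma with Benjamini-Hochberg adjustment, against 0.818% of all genes that fell and 0.431% that rose), and 2 of 9, Nqo1 and Abcc4, had an unadjusted p under 0.05, against 11% of all genes. The differences were above 0 for 8 of 9, as were 11189 of all 19938 genes, and their median was 0.15, or 0.089 without HRG 6 h replicate 1. Abcc4 came nearest to the threshold, at 0.59 ± 0.14 (adjusted p = 0.082), with both HRG arrays above both basal arrays. Its adjusted p ran from 0.012 to 0.39 over the alternatives and was under 0.05 in 6 of 17 of them, among them 0.022 with a trended, robust variance prior and 0.035 after renewed quantile normalization.

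Nqo1 at 6 h was 0.37 ± 0.16 higher with HRG (adjusted p = 0.42), with a 95% interval, unadjusted for the number of genes, from 0.020 to 0.72, and 0.18 without basal 6 h replicate 2. The intervals of Mgst2 (-0.20 to 0.19), Pir (-0.22 to 0.32) and Akr1b8 (-0.31 to 0.43) did not reach the size of their differences at 24 h. For 4 of 9 genes (Nqo1, Cbr3, Aox1 and Abcc4) both HRG 6 h arrays lay above both basal 6 h arrays, against 20% of all genes, and for 0 of 9 both lay below, against 18.3%.

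The levels in basal cells at 24 h, the reference of the comparison at 24 h, varied between replicates. Replicate 2 stood above replicate 1 for 7 of the 9 genes, and each of these 7 gaps, from 0.35 (Ephx1) to 1.09 (Gsta4), exceeded the 95th percentile of that gap over all genes (0.26), whose median was -0.0067. Aox1 and Mgst2 showed no such gap (-0.0027 and -0.014). The median of the 9 differences at 24 h was -0.99 without basal 24 h replicate 2 and -1.683 without replicate 1, and all 9 lay below 0 in both cases.

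Markers of other cells differed between the same groups. The summed level of 7 B cell markers, on the log2 scale, was 11.47 and 11.11 in basal cells at 24 h and 12.03 and 11.73 in HRG cells at 24 h, and 4 of the 7 rose with HRG. That of 7 mast cell markers was 12.30 and 12.62 against 13.18 and 12.88, with 3 of 7 risen, and that of 10 macrophage markers was 15.97 and 15.98 against 16.14 and 16.14, with 2 of 10 risen. The other lists were T and NK cell, dendritic cell, neutrophil and eosinophil, and mesothelial and fibroblast markers. Of these, 0 of 31 passed in either direction at 24 h by limma with adjustment, against 3.48% of all genes. A count of 0 is near that share, though 9 of the 31 had an unadjusted p under 0.05. At 6 h, 2 of 8 T and NK cell, 2 of 7 dendritic cell and 1 of 7 B cell markers fell, against 0.818% of all genes. At that time 1 of 10 macrophage markers rose, against 0.431%. On this scale no row reads 0, and the lowest of the markers, Klrb1c of NK cells, ranked at the 3.9th percentile. Basal 24 h replicate 2, on which most of the 9 genes were highest, had higher sums than replicate 1 for neutrophil and eosinophil markers (10.10 against 9.74, the highest of the 8 arrays), mesothelial and fibroblast markers (12.15 against 11.86) and mast cell markers, and lower sums for T and NK cell (10.08 against 10.55), B cell and dendritic cell markers (10.43 against 10.57). The part of these markers in the result was not tested, and in such bulk samples fewer cells of a type and less RNA per cell cannot be told apart.

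Other genes of the NRF2 programme came from 4 lists of textbook targets without the 9 genes. The lists were drawn up with earlier results of these data known. Their genes mostly stood lower with HRG at 24 h, 38 of 45 being below 0, as were 11224 of all 19938 genes. This comparison uses the 24 h arrays by which the 9 genes were chosen, so these counts are no independent result. Of these 45 measured genes (51 listed), 16 fell, 2 rose and 27 did not pass, against 1.05% of all genes that fell and 2.43% that rose, and their median was -0.20 (all genes: -0.02). The count that fell was 9 without HRG 24 h replicate 1, and the count that rose was 0 without that array and 1 without HRG 24 h replicate 2 or basal 24 h replicate 2. Of the 18 calls, 9 held under every alternative: Srxn1, Gclc, Gclm, Gss, Txnrd1, Me1, Gsta3, Ptgr1 and Abcb6. At 6 h, 0 of 45 fell and 2 rose, Abcc3 and Idh1, and neither rise held without basal 6 h replicate 1 or without either HRG 6 h array.

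In glutathione and thioredoxin metabolism, 5 of 13 fell, 1 rose and 7 did not pass at 24 h. Srxn1, sulfiredoxin, which repairs oxidised peroxiredoxins, read 12.20 and 12.39 in basal cells and 11.01 and 11.12 in HRG cells at 24 h, and 11.31, 11.30, 11.56 and 11.56 at 6 h. The groups at 24 h did not overlap, and the change was -1.23 ± 0.10 (adjusted p = 5.2e-05). Gclc, the catalytic subunit of the enzyme that starts glutathione synthesis, changed by -1.20 ± 0.11 (adjusted p = 0.00012), Gss, glutathione synthetase, by -1.15 ± 0.14, Txnrd1, thioredoxin reductase, by -1.05 ± 0.11 and Gclm, the modifier subunit, by -0.82 ± 0.0965. Glrx, glutaredoxin, rose by 0.54 ± 0.092 (adjusted p = 0.0062), a call lost on leaving out each of 3 arrays singly. The list held both directions, with Gpx4, Txn1 and Gpx2 at 0.053, -0.085 and -0.058, none of which passed. Txn1 read 13.92 to 14.10 over the arrays, near their highest values, and Gpx2 read 6.22 to 6.67, below every array median. A change of either may not show in full.

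In NADPH supply, 3 of 5 fell, 0 rose and 2 did not pass. Me1, malic enzyme, read 10.16 and 10.65 in basal cells and 9.09 and 9.09 in HRG cells at 24 h, against 9.30 to 9.72 on the arrays at 6 h. The HRG arrays thus lay below every array at 6 h, as for Nqo1, and the change was -1.31 ± 0.15 (adjusted p = 0.00046). Taldo1, transaldolase, changed by -0.75 ± 0.12 and Pgd of the pentose phosphate pathway by -0.42 (adjusted p = 0.026), a call lost on leaving out each of 5 arrays singly. Idh1, cytosolic isocitrate dehydrogenase, did not pass at 24 h (0.26).

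In haem and iron handling, 2 of 8 fell and 6 did not pass. Slc40a1, the iron exporter ferroportin, read 7.82 and 9.17 in basal cells at 24 h and 6.86 and 6.79 in HRG cells, so its change of -1.67 ± 0.30 (adjusted p = 0.0088) was -0.997 without basal 24 h replicate 2 and was not called without either HRG 24 h array or with the trended, robust prior. Blvrb, biliverdin reductase B, changed by -0.64 ± 0.12. Hmox1, haem oxygenase, a much used NRF2 target, did not pass: it read 13.41 and 13.60 in basal cells and 13.40 and 13.42 in HRG cells at 24 h, with a difference of -0.091 and an unadjusted 95% interval from -0.30 to 0.12. The ferritin chains Fth1 and Ftl1 were at -0.012 and -0.038 and did not pass. They read 13.94 to 14.19 over the 8 arrays, whose highest values were 14.38 to 14.49, so a change may not show in full.

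Among other detoxification targets, 6 of 19 fell, 1 rose and 12 did not pass. Ptgr1, which reduces prostaglandins and alkenals, changed by -1.18 ± 0.13, Abcb6, a porphyrin transporter, by -0.94 ± 0.12, Gsta3, a glutathione transferase, by -0.86 ± 0.11 and Abcc1, an exporter of conjugates, by -0.57 ± 0.0915. Osgin1 changed by -0.61, or -0.39 without basal 24 h replicate 2, and the autophagy receptor Sqstm1 by -0.43 (adjusted p of both under the threshold, at 0.033 and 0.024). Abcc3, another exporter, rose by 0.62 ± 0.10 (adjusted p = 0.0046), though not without HRG 24 h replicate 1. Aldh1a1, Aldh3a1 and Gstp1 were at -0.082, -0.16 and -0.081 and did not pass. Aldh1a1 (6.35 to 6.67 over the arrays) and Aldh3a1 (6.15 to 6.45) read below every array median, so a fall of either may not show.

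**Figure D3:**
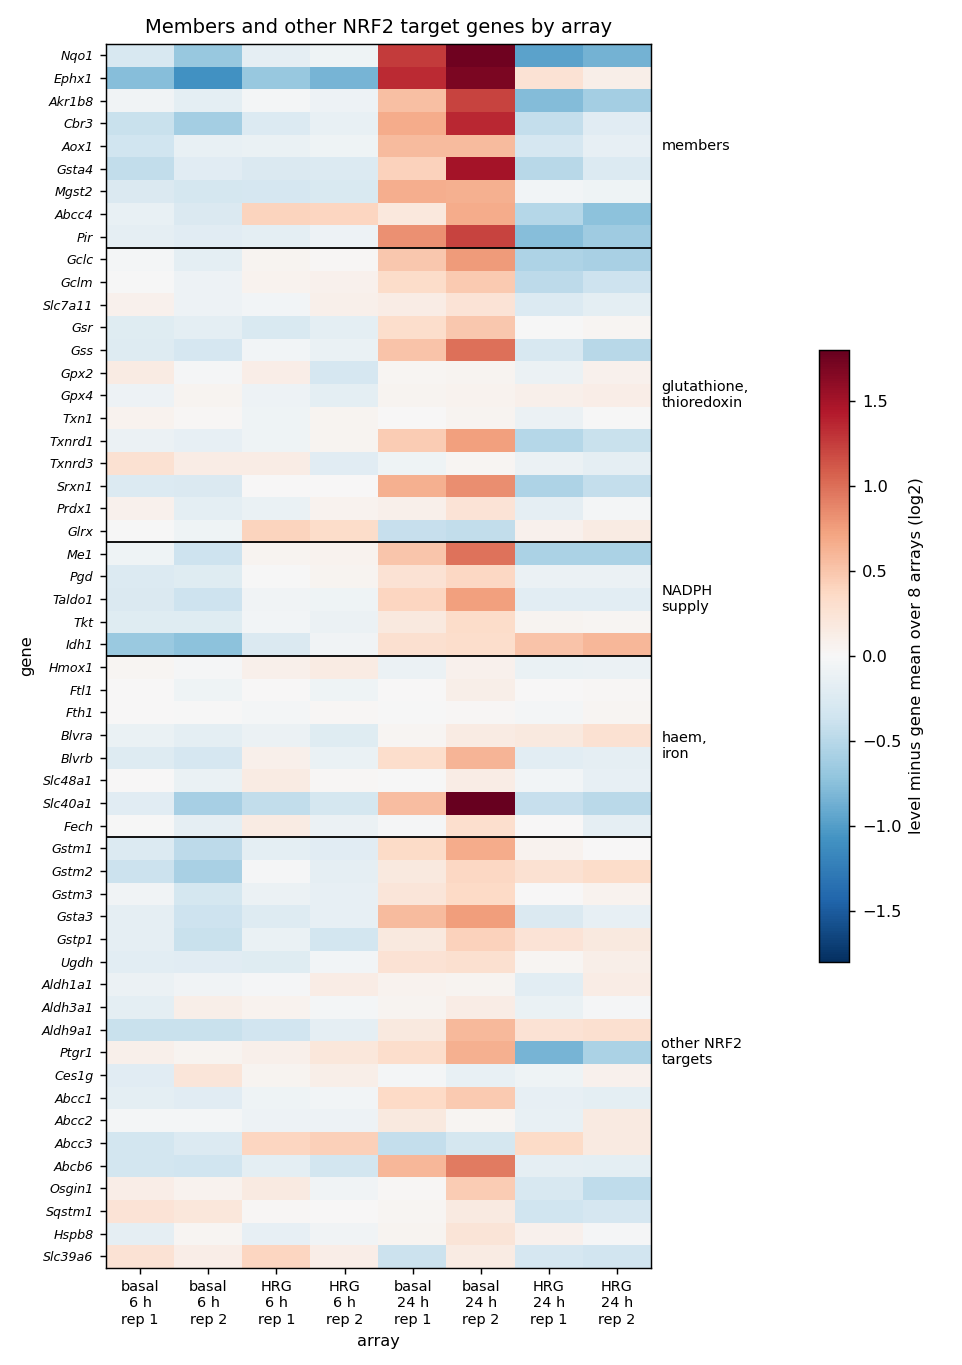
Level of each gene minus its mean over the 8 arrays (log2, colour; red above, blue below) for the 9 members and the 45 other targets (rows, grouped by list) on each array (columns). The basal 24 h columns are the reddest for most members and for Srxn1, Gss, Me1 and Slc40a1, most of all replicate 2. Glrx and Abcc3 are blue there, Abcc3 also in the basal 6 h columns, and Hmox1, Fth1 and Ftl1 stay near white.

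The other targets were also compared over culture time. From 6 h to 24 h without HRG, 22 of the 45 other targets rose and 1 fell, against 3.8% and 5.48% of all genes, with a median of 0.41 (all genes: 0.03). This included 5 of 5 genes of NADPH supply, 9 of 19 other detoxification targets and 6 of 13 glutathione and thioredoxin genes, where Glrx was the one that fell. Over the same comparison 6 of 7 B cell, 3 of 7 mast cell and 3 of 7 dendritic cell markers fell and 1 dendritic cell marker rose, while 2 of 10 macrophage markers rose and 2 fell. Their part in the result was not tested. Since this comparison and the one at 24 h share the basal 24 h arrays, values on those arrays enter both with opposite sign, and no overlap between them is given. The counts of the other targets here are therefore no independent result.

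With HRG, culture time moved the other targets in both directions. From 6 h to 24 h, 5 of 45 rose and 8 fell, against 4.41% and 2.87% of all genes, with a median of -0.080 (all genes: -0.02). Ptgr1 changed by -0.84, Me1 by -0.63 and Gclc by -0.60, while Idh1 rose by 0.73 and Aldh9a1, an aldehyde dehydrogenase, by 0.52. Of these 13 calls, 2 held under every alternative. By a test of the difference itself, the HRG effect at 24 h was lower than that at 6 h for 13 of the 45 and higher for 0, against 0.451% and 1.02% of all genes.

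The relatives of the 9 genes in their enzyme families were compared in the same way. Of 33 measured relatives (37 listed), 5 fell, 2 rose and 26 did not pass with HRG at 24 h, against 1.05% of all genes that fell and 2.43% that rose, with a median of -0.054 (all genes: -0.02). Nqo2, the other quinone reductase, was at -0.054 (unadjusted 95% interval -0.30 to 0.20) beside -2.41 for Nqo1. Ephx2, the soluble epoxide hydrolase, was at 0.14 (-0.091 to 0.36), and Cbr1 at 0.097 (-0.15 to 0.34), beside -1.33 for Ephx1 and -1.34 for Cbr3. These 3 intervals did not reach the values of Nqo1, Ephx1 and Cbr3, although the difference between relatives was not tested. The 9 genes were chosen with their difference at 24 h known. A gap between them and their relatives is favoured by that choice, so nothing is read from it. Ephx2 read only 5.38 to 5.63 over the arrays, below the lower quartile of every array (5.85 to 6.00). A fall of the size of that of Ephx1 may not show on so dim a row, so nothing is read from Ephx2.

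Among relatives of the aldo-keto reductase and aldehyde oxidase, Akr1b10 was at 0.31 and Aox3 at -0.082, neither of which passed, while Akr1c13 changed by -0.68 (adjusted p = 0.025), a call lost without 3 of the single arrays. Aox3 read 5.57 to 5.76 over the arrays, below every lower quartile like Ephx2, so a fall of Aox3 may not show either. Of the membrane-bound transferases, Mgst1 was at -0.098 (interval -0.32 to 0.13) and Mgst3 at 0.17 (-0.052 to 0.38) beside -0.71 for Mgst2. As above, nothing is read from that gap. Gsta3, of the class of Gsta4, and Abcc1 fell, as given above, and Abcc5 (-0.50) and Gsto1 (-0.49) fell as well. The call of Abcc5 was lost on leaving out each of 3 arrays singly, and that of Gsto1 on leaving out each of 2. At 6 h, 1 of 33 relatives fell and 1 rose, against 0.818% and 0.431% of all genes. These were Gsto1, by the same -0.49, a call lost on leaving out each of 6 arrays singly, and Abcc3. Cbr2 rose by 0.47 (adjusted p = 0.034), a call also lost on leaving out each of 5 arrays singly. Close relatives can share probe sequence, and whether rows of this array do so was not tested.

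Transcripts of the regulators of the pathway were measured for 17 genes. At 24 h 1 fell and 0 rose, against 1.05% and 2.43% of all genes, and at 6 h 1 fell and 0 rose, against 0.818% and 0.431%, with medians of -0.027 and -0.10. Nfe2l2, which encodes NRF2, read 12.22 and 12.33 in basal cells and 12.49 and 12.47 in HRG cells at 24 h, a difference of 0.20 ± 0.094 (adjusted p = 0.40). Keap1, the inhibitor, was at -0.28 ± 0.10 (adjusted p = 0.24) and Bach1, a repressor at the same elements, at -0.22 ± 0.10 (adjusted p = 0.39).

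The member of that list that fell at 24 h was Mafg, a small MAF partner, at -0.45 ± 0.093 (adjusted p = 0.018), and at 6 h it was Nfe2l1, a relative of NRF2, at -0.49 ± 0.096 (adjusted p = 0.032). The call of Mafg was lost without basal 24 h replicate 2 or either HRG 24 h array, and that of Nfe2l1 without 6 of the 8 single arrays. From 6 h to 24 h in basal cells, 1 of the 17 rose (Keap1) and 4 fell (Bach2, Nfe2l1, Sirt1 and Gsk3b), against 3.8% and 5.48% of all genes. Bach2 changed by -1.21 and Nfe2l1 by -0.61. With HRG over the same time, 1 rose and 0 fell, against 4.41% and 2.87%. This was Nfe2l2, by 0.45, a call lost on leaving out each of 4 arrays singly. Transcript arrays do not measure the amount of NRF2 protein.

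**Figure D4:**
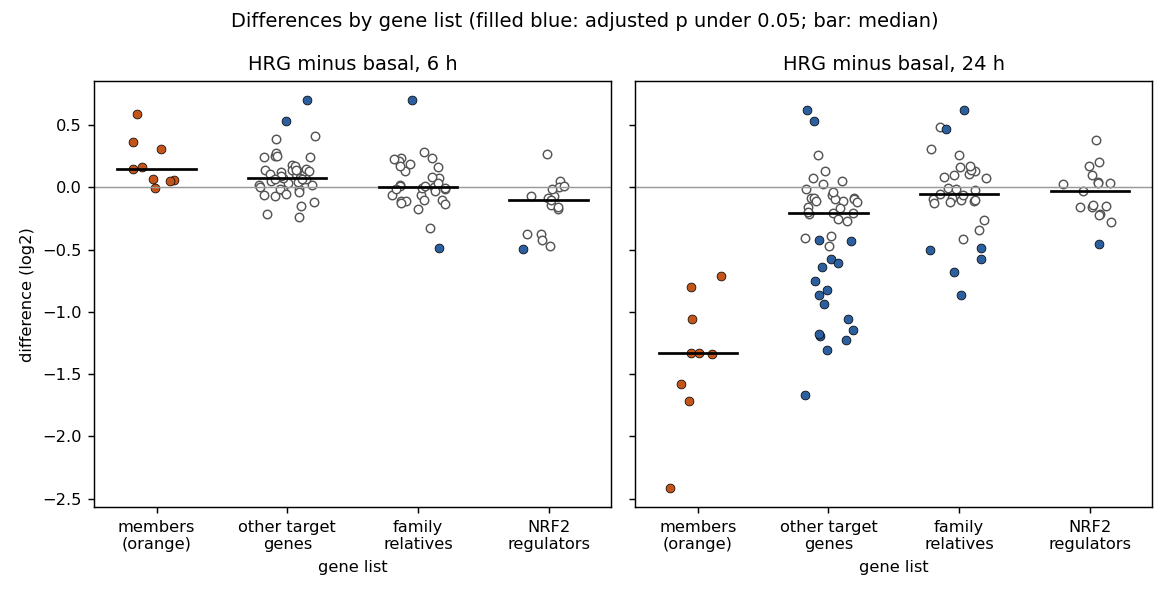
Log2 differences of HRG minus basal at 6 h (left) and 24 h (right) for each gene of 4 lists, with a bar at the list median; blue points passed an adjusted p of 0.05, and members (orange) carry no test mark. At 24 h the medians are -1.33 for the members, -0.20 for the other targets, -0.054 for the family relatives and -0.027 for the regulators.

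The genes whose profile over the 8 arrays was most like the mean of the 9 members, among 457 other genes whose group means spanned at least 1 log2 unit, were Gss (Pearson r = 0.98), Acss2, a cytosolic acetyl-CoA synthetase (0.98), Nr1d1, the clock repressor REV-ERBα (0.98), Maoa, monoamine oxidase A (0.97), Layn (0.97) and Abcb6 (0.97). Closest to Nqo1 alone were Srxn1 (0.99), Txnrd1 (0.98) and Me1 (0.98). These are descriptions over 8 arrays that fall into 4 groups and share their normalization. Between the 9 members, r over the 8 arrays ran from 0.27 to 0.99 with a median of 0.87 over 36 pairs. The members were chosen with a shared difference at 24 h known, and that difference enters r, so nothing is read from its height. Against the mean of the other members, Cbr3 (0.98) and Nqo1 (0.97) were closest, and Ephx1 (0.77) and Abcc4 (0.65), the genes that differed most between HRG cells at 24 h and 6 h, were farthest.

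Acss2 and Maoa had the members' outline outside the lists. Acss2 read 7.79 and 7.73 in basal cells at 6 h, 8.21 and 8.13 in HRG cells at 6 h, 9.01 and 9.58 in basal cells at 24 h, and 8.09 and 7.84 in HRG cells at 24 h. Maoa read 7.84 and 7.51, 7.74 and 7.84, 8.55 and 9.17, and 7.78 and 7.83 in the same order of groups. For both, the basal 24 h arrays lay above the 6 others and replicate 2 was the higher of the pair, as for most of the 9 genes. Both were picked for likeness to the members' mean, which has this outline, so nothing is read from it.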

How the data were processed

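Transcript levels in total RNA of cultured mouse peritoneal macrophages were measured on 8 Affymetrix arrays. The deposited values are log2 values; the submitters' processing notes name Affymetrix Expression Console, RMA and limma without versions. RMA corrects the background, normalizes between arrays and summarises the probes of a row, and it compresses low signals, so differences of dim rows can be understated.

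Of 28853 rows, those with several symbols (1621) or none (5443) in the platform annotation were left out. Where a gene had more than 1 row (999 genes), the brightest was used, which left 19938 genes. RefSeq tables (GRCm38.p6) held 21698 of the 21789 gene IDs and gave the promoter windows. The 9 genes and all gene lists were chosen with earlier results of these data known. Genes were named by rule: all 9, up to 6 past the threshold per list, regulators and family relatives, and the 6 genes most like the mean of the 9 and 3 most like Nqo1. Other list genes, markers and displayed arrays were picked after their values were seen.

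Group means were fitted to all 8 arrays with limma 3.58.1 in R 4.3.3 (4 residual and 7.81 prior degrees of freedom; two-sided tests, Benjamini-Hochberg adjustment over 19938 genes), after tests on simulated data. The number of arrays limits the precision. The alternatives were a replicate block, a trended and robust variance prior, renewed quantile normalization, median centring, dropping the dimmest 30% of genes, averaging rows, testing every row, fitting only the arrays compared, a covariate from the array's lower quartile and leaving out each array.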

Additional observations from a re-analysis of the deposited data

Results flagged for a closer look

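For 13 of the 45 other targets, the HRG effect at 24 h differed from that at 6 h by a test of the difference itself (limma contrast, adjusted over all genes), always towards lower at 24 h, against 0.451% of all genes called lower and 1.02% called higher in that contrast. The effect at 24 h minus that at 6 h was -1.58 for Me1 (adjusted p = 0.0046), -1.48 for Srxn1 (adjusted p = 0.00082), -1.34 for Gclc (adjusted p = 0.0035), -1.33 for Gss (adjusted p = 0.0082), -1.25 for Ptgr1 (adjusted p = 0.0066) and -1.16 for Txnrd1 (adjusted p = 0.0048). These 6 calls held under every alternative. It was -1.03 for Abcb6, -1.0 for Taldo1, -0.95 for Gclm, -0.94 for Gsta3, -0.89 for Blvrb, -0.71 for Abcc1 and -0.67 for Pgd, with adjusted p from 0.0069 to 0.028, and each of these 7 calls was lost without at least 1 single array. All 13 genes were above 0 at 6 h, from 0.073 (Gsta3) to 0.28 (Me1), and none of those values at 6 h passed.

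For Nqo1, Cbr3, Aox1 and Abcc4, both HRG arrays lay above both basal arrays at 6 h and below them at 24 h. The difference between the effects was -2.78 for Nqo1, -1.65 for Cbr3, -0.95 for Aox1 and -1.65 for Abcc4. This difference was not tested, because the 24 h contrast served to choose these genes.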

How the results depend on the processing

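The comparisons of the 9 genes kept their sign under every alternative, with few exceptions. At 6 h, Gsta4 (0.068) was -0.054 without basal 6 h replicate 1 and 0.19 without basal 6 h replicate 2, and Mgst2 (-0.0031) was 0.0090 with the quartile covariate, 0.029 without basal 6 h replicate 1 and 0.010 without HRG 6 h replicate 1, with -0.035 without basal 6 h replicate 2. Neither had passed. From 6 h to 24 h in HRG cells, Gsta4 (-0.12) was 0.014 without HRG 24 h replicate 1. Of 756 values of single members over the alternatives, 700 moved by less than the replicate spread or stayed on their side of the threshold, 46 moved by more, 6 (all Abcc4 at 6 h) came under the threshold and 4 changed sign at 6 h. The number of the 9 called higher at 6 h (0) was 1 with the trended, robust prior, with renewed quantile normalization, with the quartile covariate and with only the arrays compared, and 0 to 1 without single arrays. That gene was Abcc4. The member median ran without single arrays from -1.683 to -0.99 for HRG minus basal at 24 h, from -1.95 to -1.30 for the difference of the effects and from 0.94 to 1.40 for basal time. It ran from 0.089 to 0.18 for HRG minus basal at 6 h and from -0.25 to -0.054 for time with HRG.

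Genes called over the whole array at 6 h (249) were 492 with the trended, robust prior, 134 with every row tested, 518 with the quartile covariate, 155 with only the arrays compared, and 21 to 287 without single arrays. At 24 h (694) they were 1099 with the covariate and 182 to 781 without single arrays. For the difference of the effects (294) they were 547 with that prior, 168 with every row tested, 519 with the covariate and 56 to 404 without single arrays. For basal time (1851) they ran from 1124 to 1817 without single arrays and were 2356 with that prior, 2335 with renewed quantile normalization and 2445 with the covariate. For time with HRG (1452) they were 2518 with the covariate and 529 to 1680 without single arrays. The causes were not tested. Other targets that fell at 24 h (16) ran from 9 to 19 and those that rose (2) from 0 to 2.

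With the replicate block, 242 genes were called at 6 h, 725 at 24 h and 17 other targets fell at 24 h. Deviations of same-numbered arrays correlated between -0.331 and 0.411 over genes, so the number was not taken to pair samples. The block changed no call of the 9 genes at 6 h. Rows near the background of the array limit what can be seen, and 2 arrays per group leave each value open to 1 array.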

Other observations

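The battery of the aryl hydrocarbon receptor, a sensor of planar aromatic compounds that also controls Nqo1, was measured by 8 genes. With HRG, 0 of 8 passed at 6 h (0.818% of all genes fell and 0.431% rose) or at 24 h (3.48% passed in either direction) by limma with adjustment, so a count of 0 is near the share over all genes. At each time 1 of the 8 had an unadjusted p under 0.05, and the medians were -0.025 and -0.15. Cyp1a1, its most used target, was at 0.27 at 6 h and 0.014 at 24 h, and neither passed. Cyp1b1 was at -0.55 at 24 h (adjusted p = 0.10), and from 6 h to 24 h it fell with and without HRG, by 1.15 and 0.63.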
